A study of Rattus norvegicus with 6 samples.

Results

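The genes described here encode the enzymes that make fatty acids, lengthen and desaturate them, and build sphingolipids and galactolipids from them. They were 41 gene symbols listed by function, and 40 of them were matched exactly to 41 of the 34106 rows of the count table. Scd had no exact match and was dropped. Elovl6 stood on 2 rows. Of the 41 rows, 39 passed the filter on low counts and were tested, and 2 did not. The inferior alveolar nerve (IAN), a sensory branch of the trigeminal nerve that serves the lower jaw and lip, was taken from male Sprague-Dawley rats a few weeks old. In the 3 IANX rats the IAN and the mental nerve had been transected with a gap and left without suture. In the 3 Sham rats the cheek skin and the masseter muscle had been incised and the nerve left uncut. All nerves were excised on day 14 and measured by bulk RNA-seq, 1 rat per sample. The GEO treatment entry of the IANX samples reads "transfection", a word the study also uses for the cut, and that of the Sham samples reads "none".

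Fatty acid synthesis starts in the cytosol, where acetyl-CoA is made from citrate or acetate, carboxylated to malonyl-CoA and joined into palmitate. Acyl-CoA synthetases activate fatty acids, elongases lengthen them in the endoplasmic reticulum, and desaturases put in double bonds. Sphingolipid synthesis starts with the condensation of serine and palmitoyl-CoA, and ceramide synthases then add an acyl chain of a length that depends on the enzyme. Ceramide receives a galactose, a glucose or a phosphocholine head group. Galactosylceramide and its sulfated form, sulfatide, are rich in very long and hydroxylated acyl chains and are known as characteristic lipids of myelin, the sheath that Schwann cells wrap around axons.

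The libraries held 13988750 to 16440720 counts (IANX) and 14630127 to 17105402 counts (Sham). Levels are CPM, counts scaled by library size and TMM factors (edgeR's trimmed means), and are comparable between samples, not between genes. FPKM, which also account for gene length, are used between genes. With n = 3 per group, edgeR's quasi-likelihood F test was applied two-sided to 15374 genes, and the threshold was a Benjamini-Hochberg adjusted p of 0.05. Log2 fold changes, IANX over Sham, are given ± their standard error. The 12 markers of myelinating Schwann cells, which define the tissue, summed to 3629 to 13323 CPM in IANX and 173607 to 226863 CPM in Sham, and all 12 were lower. IANX 2 stood apart from IANX 1 and IANX 3. Its correlations with them over all tested genes were 0.902 and 0.914, against 0.959 between these 2. It had the fewest tooth transcripts (1949 CPM, against 56081 and 60762 CPM in IANX 1 and IANX 3, and 128 to 874 CPM in Sham) and epithelial transcripts (35.4 CPM, against 1573 and 3529 CPM in the other IANX samples). Of the epithelial markers, Cdh1 was the exception in direction, at 129, 19.3 and 319 CPM in IANX 1, 2 and 3, against 372, 447 and 402 CPM in Sham. Without Cdh1 they summed to 1444, 16.0 and 3210 CPM in IANX 1, 2 and 3, against 13.7 to 24.7 CPM in Sham, so that IANX 2 lay within the Sham range. It had the most macrophage transcripts (1571 CPM, against 621.5 and 758 CPM, and 380.2 to 433 CPM in Sham) and the most transcripts of the Schwann lineage (2471 CPM, against 563 and 948 CPM, and 7198 to 7483 CPM in Sham). Of 8 adipocyte markers, 4 were tested and did not pass, and Plin1, Cidec, Lep and Retn stayed below the filter, with Lep at a count of 0 in every IANX sample. All 6 tested tooth markers and 5 of 6 epithelial, 5 of 10 macrophage, 6 of 8 bone and 4 of 7 fibroblast markers were higher, 3 of 5 Schwann lineage markers and 1 of 2 neuron markers were lower, and 6 skeletal muscle markers did not pass. Across the list, adipocyte markers summed to 27.3 to 79.4 CPM in IANX and 27.2 to 53.2 CPM in Sham.

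Most of the lipid synthesis genes were lower on day 14 after IANX. Of the 39 tested rows, 24 were lower, 4 were higher and 11 did not pass. Over all tested genes, 16.6% were lower and 17.8% were higher (34.4% in either direction). The 4 higher genes were the acyl-CoA synthetase Acsl5, the elongase Elovl4, the ceramide synthase Cers6 and the sphingomyelin synthase Sgms2. The median log2 fold change of the 39 rows was -0.96, against 0.08 over all tested genes, and single values lay between -5.14 for Fa2h and 3.17 for Cers6. In 26 of the 39 rows every IANX sample was below every Sham sample, as in 24.5% of all tested genes, and in 7 every IANX sample was above, as in 27.0% (51.5% in either direction), and in 6 the groups overlapped. Per step, 4 of 6 genes of acyl chain supply were lower, 3 of 6 of acyl activation and glycerol acylation, 2 of 4 of desaturation, 3 of 5 of elongation, 7 of 10 of ceramide synthesis, 3 of 5 of head group transfer and 2 of 3 of breakdown. The median log2 fold changes of these steps were -1.31, -0.51, -1.15, -2.02, -0.92, -1.10 and -1.02. In a bulk sample, fewer cells of a type and less RNA per cell cannot be told apart, and the part of the lower Schwann cell markers in these differences was not tested. With library sizes as the only scaling, the median of all tested genes was 0.53. Of all called genes, 80.1% were higher there in place of 51.7%. In that fit 19 members were lower and 7 higher, the additional higher ones being Cers4, Elovl5 and Ugcg. Acsl3, Asah1, Cers5, Gpam and Sptlc1 were no longer called. Without Sham 2 or without Sham 3, 2 members passed as higher and 19 as lower. Of 16180 and 16142 genes tested in these fits, 1029 and 961 were higher and 1571 and 1494 lower. With all samples the counts over all tested genes were 2734 higher and 2550 lower.

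**Figure D1:**
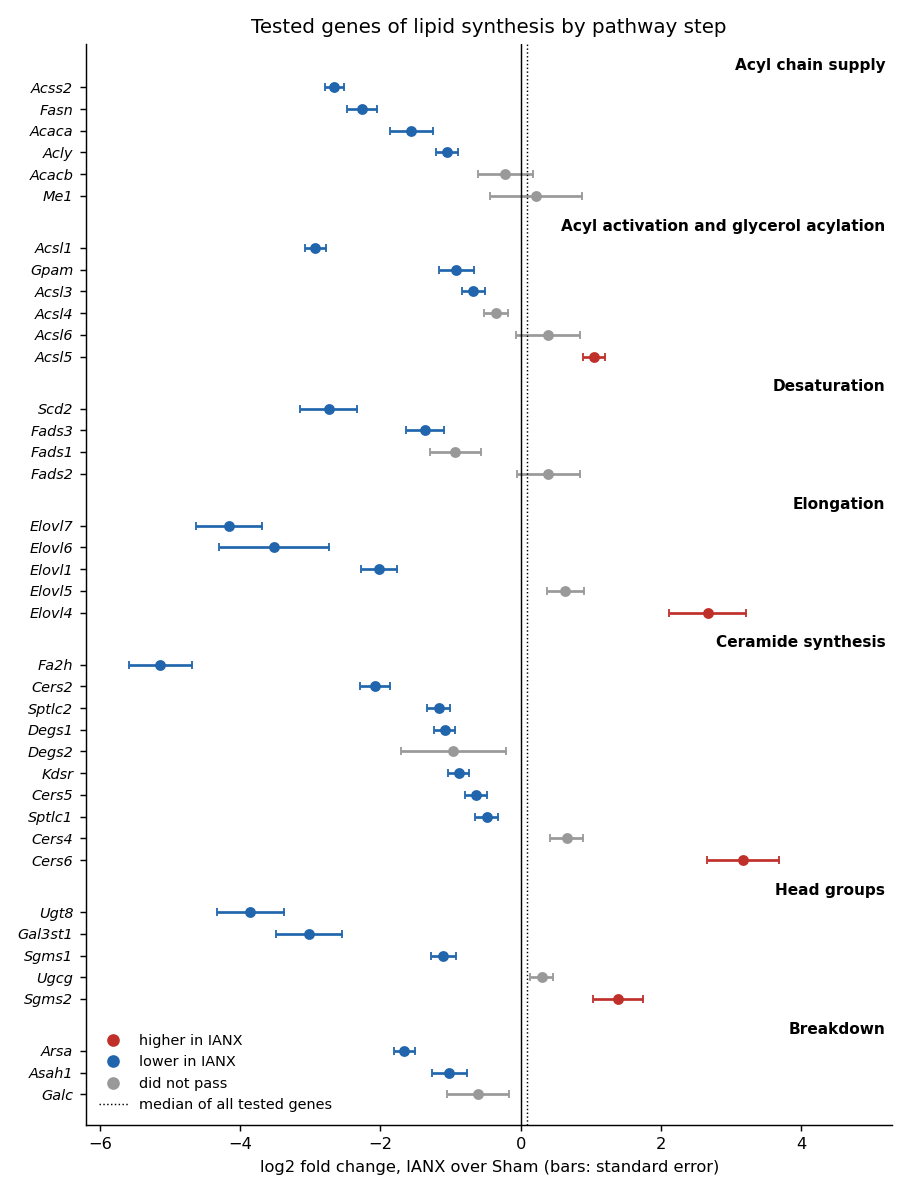
Log2 fold change of IANX over Sham (x axis) for each of the 39 tested rows (y axis), grouped by pathway step, with the standard error as a bar and the median of all tested genes (0.08) as a dotted line. The points in 24 rows are lower and in 4 rows higher at an adjusted p under 0.05 (edgeR), and elongation and ceramide synthesis hold both large decreases (Elovl7 at -4.16, Fa2h at -5.14) and increases (Elovl4 at 2.66, Cers6 at 3.17).

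As 24 members were lower, the promoters of 4 members with large decreases or high levels (Fa2h, Ugt8, Scd2 and Cers2) and of the member with the largest increase (Cers6) are shown. They are the 250 bases before the RefSeq gene start on the rat build GRCr8, written 5′ to 3′ on the strand of the gene, and capitals mark the CCAAT box (CCAAT or its reverse complement ATTGG) and the GC box (GGGCGG or CCGCCC). Fa2h lies at chr19:56273481-56273730 on the minus strand, Ugt8 at chr2:217007168-217007417 on the minus strand, Scd2 at chr1:253118127-253118376 on the plus strand, Cers2 at chr2:185579261-185579510 on the plus strand and Cers6 at chr3:74038611-74038860 on the plus strand.
Fa2h: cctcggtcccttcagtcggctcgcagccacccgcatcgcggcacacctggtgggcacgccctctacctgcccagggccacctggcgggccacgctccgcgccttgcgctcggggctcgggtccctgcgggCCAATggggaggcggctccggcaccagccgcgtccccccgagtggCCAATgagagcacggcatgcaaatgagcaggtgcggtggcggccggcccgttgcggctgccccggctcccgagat
Ugt8: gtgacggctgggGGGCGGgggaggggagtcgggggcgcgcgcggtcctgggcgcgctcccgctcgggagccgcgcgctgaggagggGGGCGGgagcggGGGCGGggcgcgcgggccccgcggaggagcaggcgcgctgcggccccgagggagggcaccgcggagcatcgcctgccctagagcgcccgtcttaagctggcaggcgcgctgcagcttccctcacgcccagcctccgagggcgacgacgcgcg
Scd2: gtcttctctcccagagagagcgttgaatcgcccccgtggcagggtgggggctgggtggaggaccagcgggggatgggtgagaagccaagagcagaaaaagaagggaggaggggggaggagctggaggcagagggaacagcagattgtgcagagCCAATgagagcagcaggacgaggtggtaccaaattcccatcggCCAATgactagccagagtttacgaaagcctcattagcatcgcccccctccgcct
Cers2: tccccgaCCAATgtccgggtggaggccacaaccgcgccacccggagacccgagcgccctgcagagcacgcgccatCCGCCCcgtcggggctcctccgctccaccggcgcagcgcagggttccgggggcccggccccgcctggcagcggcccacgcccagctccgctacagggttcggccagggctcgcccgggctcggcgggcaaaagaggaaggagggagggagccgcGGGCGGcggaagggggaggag
Cers6: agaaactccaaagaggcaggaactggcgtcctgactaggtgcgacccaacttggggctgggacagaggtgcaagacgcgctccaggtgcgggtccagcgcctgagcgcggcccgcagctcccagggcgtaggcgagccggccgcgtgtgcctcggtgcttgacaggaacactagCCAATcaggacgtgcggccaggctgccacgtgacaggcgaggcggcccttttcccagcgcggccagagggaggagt

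Of the 40 matched symbols, 34 had a RefSeq promoter, searched on both strands from 250 bases before to 50 after the start, with each promoter counted once per motif. The CCAAT box stood in 18 of the 34 promoters (52.9%), against 37.5% of all 33469 rat promoters of the same length, and the GC box in 22 (64.7%), against 33.1%. The pairs of CCAAT boxes seen above in Fa2h and Scd2 begin at -120 and -75 and at -97 and -54. The single one in Cers6, whose transcript was higher, begins at -76. A sterol regulatory element, searched as TCACNCCAC, stood in 0 of 34, against 1.12% of all. The EGR motif GCGTGGGNG, which the myelin regulator Egr2 binds, stood in 1 (2.94%, the promoter of Me1), against 1.66%. The SOX motif ACAAAG stood in 6 (17.6%), against 18.8%, and the E-box CACGTG in 3 (8.82%), against 6.42%. A match is a description of letters, not of a site in use.

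In the supply of acyl chains, both routes to cytosolic acetyl-CoA were lower. Acss2, which makes acetyl-CoA from acetate, was at 23.6, 24.4 and 24.1 CPM in IANX 1, 2 and 3, against 143, 166 and 146 CPM in Sham 1, 2 and 3. The IANX samples were nearly alike, and the gene was 6.31-fold lower, a log2 fold change of -2.66 ± 0.14 (edgeR adjusted p = 0.000209). Acly, which splits citrate into acetyl-CoA, was at 165, 200.0 and 189 CPM in IANX, against 396, 364 and 392 CPM in Sham, a log2 fold change of -1.06 ± 0.16 (adjusted p = 0.00337). The acetyl-CoA carboxylase Acaca, the committed enzyme of synthesis, was at 54.3, 28.8 and 38.2 CPM in IANX, against 146, 79.5 and 132 CPM in Sham. Its log2 fold change stood at -1.56 ± 0.31 (adjusted p = 0.00908), and IANX 2 and Sham 2 were the lowest of their groups. Fasn, the synthase that joins the chain, was at 157, 109 and 165 CPM in IANX, against 659, 745 and 674 CPM in Sham, 4.82-fold lower (adjusted p = 0.000712). Here too IANX 2 was the lowest IANX sample.

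Acacb and Me1 did not pass. Acacb, whose malonyl-CoA is known to restrain fatty acid entry into mitochondria, was at 12.3, 4.30 and 8.71 CPM in IANX, against 8.22, 9.33 and 12.0 CPM in Sham, and the groups overlapped (log2 fold change -0.22, 95% interval -1.14 to 0.70, adjusted p = 0.691, edgeR). Me1, the malic enzyme that supplies NADPH, was at 230.0, 24.5 and 91.4 CPM in IANX, against 99.4, 98.9 and 99.2 CPM in Sham. The IANX samples lay on both sides of 3 nearly equal Sham samples, and the log2 fold change of 0.22 (95% interval -1.30 to 1.74) had an adjusted p of 0.817. IANX 2 alone against Sham gave -2.01 for Me1 (adjusted p = 0.000492), a fit in which the spread comes from Sham alone. Thrsp, a regulator of fat synthesis in liver and adipose tissue, was below the filter, with counts of 2, 0 and 8 in IANX and 18, 1 and 3 in Sham.

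Among the acyl-CoA synthetases, Acsl1 was lower and Acsl5 higher. Acsl1, the main isozyme of heart and adipose tissue, was at 18.7, 20.2 and 17.9 CPM in IANX, against 157, 138 and 137 CPM in Sham. The groups were far apart at 7.61-fold, a log2 fold change of -2.93 ± 0.15 (edgeR adjusted p = 0.000209). Acsl5, an isozyme known from intestine and of the endoplasmic reticulum and mitochondria, was at 35.1, 39.5 and 45.3 CPM in IANX, against 18.8, 18.4 and 20.9 CPM in Sham. Every IANX sample was above every Sham sample, with a log2 fold change of 1.05 ± 0.16 (adjusted p = 0.00389). Acsl3, an isozyme of the endoplasmic reticulum and lipid droplets, was at 80.8, 84.3 and 62.2 CPM in IANX, against 130.2, 113 and 120.1 CPM in Sham (log2 fold change -0.68, adjusted p = 0.0185). Gpam, the mitochondrial acyltransferase that starts glycerolipid synthesis, was at 18.0, 15.2 and 16.5 CPM in IANX, against 39.9, 21.0 and 33.2 CPM in Sham (log2 fold change -0.92, adjusted p = 0.0274). Both calls were lost in several fits with 1 sample left out. The log2 fold changes of these fits were -0.80 to -0.55 for Acsl3 and -1.16 to -0.72 for Gpam. Acsl3 had adjusted p of 0.0574 without IANX 3 and 0.0641, 0.0518 and 0.0734 without Sham 1, 2 and 3, and Gpam 0.0712 without IANX 3 and 0.0849 and 0.0932 without Sham 1 and Sham 3. Acsl4, the isozyme with a preference for arachidonic acid, and Acsl6, known from brain, did not pass (log2 fold changes -0.35 with a 95% interval of -0.75 to 0.05, and 0.38 with one of -0.69 to 1.45).

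Desaturation was led by Scd2, the stearoyl-CoA desaturase that makes oleate and the most abundant transcript of all members. By mean FPKM it ranked 17 of all genes of the table in Sham and 143 in IANX. Scd2 was at 1588, 3377 and 1846 CPM in IANX, against 17809, 12710 and 14946 CPM in Sham, a log2 fold change of -2.74 ± 0.40 (edgeR adjusted p = 0.00328). IANX 2 was the highest IANX sample, as it was for the Schwann lineage and macrophage markers. The paralog Scd1, which is not on the list, was at 36.0, 21.0 and 60.3 CPM in IANX, against 110.2, 113 and 88.1 CPM in Sham (log2 fold change -1.41, adjusted p = 0.0215). IANX 2 was the lowest IANX sample there. The 2 genes are close copies, near each other on chromosome 1, so that reads may be shared between them and the split is uncertain.

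The 3 Fads genes also lie side by side on chromosome 1, between 226091774 and 226249138 of build rn6, and differed in their values. Fads3, which acts on the sphingoid base of ceramides, was at 20.9, 39.6 and 23.9 CPM in IANX, against 61.0, 86.1 and 70.5 CPM in Sham (log2 fold change -1.37 ± 0.27, edgeR adjusted p = 0.00927). Fads1 and Fads2, which act in turn in the synthesis of arachidonic acid and other polyunsaturated fatty acids, did not pass. Fads1 was at 97.4, 273 and 126 CPM in IANX, against 333, 309.8 and 303 CPM in Sham, so that every IANX sample was below every Sham sample (log2 fold change -0.93, 95% interval -1.79 to -0.07, adjusted p = 0.0857). Fads2 was at 51.4, 166 and 58.1 CPM in IANX, against 82.0, 53.0 and 75.2 CPM in Sham (log2 fold change 0.39, adjusted p = 0.526). In both genes IANX 2 was the highest IANX sample, 2.80-fold above the lowest for Fads1 and 3.23-fold for Fads2. Without IANX 2, Fads1 passed at a log2 fold change of -1.54 (adjusted p = 0.000369), and it passed with DESeq2 (-0.96, adjusted p = 0.037). The sign of Fads2 rested on IANX 2, with a log2 fold change of -0.39 without it (edgeR adjusted p = 0.151). It was 1.26 with IANX 2 alone, a fit with 1 IANX library.

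Elongation held some of the largest changes in both directions. Elovl7, an elongase of saturated very long chains, was at 2.09, 6.97 and 6.82 CPM in IANX, against 112, 66.0 and 105 CPM in Sham. It was 17.9-fold lower, a log2 fold change of -4.16 ± 0.47 (edgeR adjusted p = 0.0013). Elovl1, which makes the saturated chains that Cers2 uses, was at 97.2, 166 and 114 CPM in IANX, against 435, 620.2 and 473 CPM in Sham (log2 fold change -2.02 ± 0.26, adjusted p = 0.00202). Neither gene overlapped between the groups. Elovl6, which lengthens palmitate to stearate, was rare, with 6, 1 and 13 counts in IANX and 49, 86 and 39 counts in Sham. Its difference, -3.51 ± 0.78 on the log2 scale (adjusted p = 0.0142), rested on few reads. It was -4.46 without IANX 3 and -3.02 without Sham 2, where the adjusted p was 0.0678. The second Elovl6 row, below the filter, had 1, 1 and 3 counts in IANX and 7, 3 and 9 in Sham.

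Elovl4 and Elovl5 had positive fold changes. Elovl4, which makes the ultra-long chains of skin and retina, was at 9.17, 2.72 and 7.53 CPM in IANX, against 1.45, 0.916 and 0.665 CPM in Sham, a log2 fold change of 2.66 ± 0.55 (edgeR adjusted p = 0.0110). IANX 2 was the lowest IANX sample, as it was for tooth and epithelial transcripts (1949 CPM in summed tooth markers and 16.0 CPM in epithelial markers without Cdh1), and their part in this increase was not tested. With IANX 2 alone it came to 1.43 on the log2 scale, and without Sham 2 or Sham 3 the edgeR adjusted p was 0.0585 or 0.0551. Elovl5, which lengthens polyunsaturated chains, was at 47.4, 50.4 and 45.6 CPM in IANX, against 39.6, 19.2 and 33.4 CPM in Sham. Every IANX sample was above every Sham sample, but the gene did not pass (log2 fold change 0.64, 95% interval 0.03 to 1.24, adjusted p = 0.0933).

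Along the ceramide pathway Sptlc1, Sptlc2, Kdsr and Degs1 had log2 fold changes of -0.49 to -1.17, and Cers2 and Fa2h ones of -2.08 and -5.14. Serine palmitoyltransferase condenses serine with palmitoyl-CoA. Its subunit Sptlc2 was at 22.5, 22.6 and 20.9 CPM in IANX, against 55.0, 40.4 and 53.2 CPM in Sham (log2 fold change -1.17 ± 0.17, edgeR adjusted p = 0.00301). The partner subunit Sptlc1 was at 41.1, 47.2 and 53.1 CPM in IANX, against 58.5, 69.0 and 70.7 CPM in Sham (log2 fold change -0.49, adjusted p = 0.0492). Sptlc1 was close to the threshold. It did not pass without IANX 1 or 3 (adjusted p = 0.148 and 0.0683), without Sham 1, 2 or 3 (0.0617, 0.127 and 0.159) or with the replicate number as a block (0.0542). Nor did Sptlc1 pass with library sizes only, with no filter on low counts or with unfiltered limma. Over all alternatives its log2 fold changes were -0.58 to -0.04. Kdsr, the reductase of the next step, was at 24.4, 26.4 and 24.8 CPM in IANX, against 41.1, 50.7 and 47.8 CPM in Sham (log2 fold change -0.89, adjusted p = 0.00507). Degs1, which turns dihydroceramide into ceramide, was at 68.9, 85.3 and 83.0 CPM in IANX, against 168, 168 and 169 CPM in Sham (log2 fold change -1.09, adjusted p = 0.00227). Degs2, the related hydroxylase of phytoceramide, was near 1 to 4 CPM and did not pass (log2 fold change -0.96, 95% interval -2.72 to 0.80).

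Of the ceramide synthases, Cers2 and Cers5 were lower, Cers6 was higher and Cers4 did not pass. Cers2, which adds very long chains and is the main ceramide synthase of myelinating cells, was at 91.0, 137 and 121 CPM in IANX, against 457, 558 and 457 CPM in Sham, 4.22-fold lower (log2 fold change -2.08 ± 0.21, edgeR adjusted p = 0.000898). It overlaps Setdb1 on the other strand, and the kit does not mark strand. Setdb1 averaged 44.2 CPM in IANX and 48.6 CPM in Sham, and its part in the Cers2 counts was not tested. Cers6, which adds palmitoyl chains, was at 14.5, 4.90 and 16.2 CPM in IANX, against 1.66, 1.08 and 1.18 CPM in Sham, 9.09-fold higher (log2 fold change 3.17 ± 0.51, adjusted p = 0.00447). As with Elovl4, IANX 2 was the lowest IANX sample, and alone it gave a log2 fold change of 1.91. Cers5, the other palmitoyl-adding synthase, was at 72.7, 90.7 and 78.5 CPM in IANX, against 112, 143 and 122 CPM in Sham (log2 fold change -0.64, adjusted p = 0.0206). Its call was lost without IANX 1 or IANX 3 (adjusted p = 0.0702 and 0.0718) and without Sham 2 or Sham 3 (0.0743 and 0.0744). Cers4, which adds long chains, was at 13.2, 13.2 and 15.8 CPM in IANX, against 9.73, 6.75 and 10.3 CPM in Sham (log2 fold change 0.65, adjusted p = 0.0693).

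Fa2h, whose promoter is printed above, hydroxylates the fatty acids that enter myelin galactolipids. It was at 8.89, 22.5 and 27.9 CPM in IANX, against 627, 797 and 664 CPM in Sham. It lies at chr19:43545378-43596801 of build rn6. Its mean was 35.3-fold lower (edgeR adjusted p = 0.000621), the largest change among the members in either direction, and the IANX samples themselves spread 3.14-fold.

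The enzymes that add the galactose and the sulfate of myelin lipids were much lower, while the glucosylceramide synthase did not pass. Ugt8, which makes galactosylceramide, was at 56.9, 211 and 121 CPM in IANX, against 1911, 1812 and 1915 CPM in Sham, 14.5-fold lower (log2 fold change -3.86 ± 0.48, edgeR adjusted p = 0.00175). Gal3st1, which sulfates it to sulfatide, was at 5.94, 22.9 and 12.4 CPM in IANX, against 90.4, 144 and 99.9 CPM in Sham (log2 fold change -3.02 ± 0.47, adjusted p = 0.00411), and -3.64 without IANX 2. In both genes IANX 2 was the highest and IANX 1 the lowest IANX sample, the order also seen in the summed markers of myelinating Schwann cells (3629, 13323 and 8386 CPM in IANX 1, 2 and 3). Fa2h departed from this order, with IANX 3 the highest at 27.9 CPM. The part of Schwann cells in these values was not tested. Ugcg, which makes glucosylceramide, the base of gangliosides, was at 31.4, 37.5 and 43.4 CPM in IANX, against 31.0, 30.7 and 29.4 CPM in Sham (log2 fold change 0.30, 95% interval -0.08 to 0.69, adjusted p = 0.189).

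The 2 sphingomyelin synthases, which transfer phosphocholine to ceramide, changed in opposite directions. Sgms1, the Golgi enzyme, was at 46.0, 47.1 and 59.7 CPM in IANX, against 112, 93.6 and 122 CPM in Sham (log2 fold change -1.10 ± 0.17, edgeR adjusted p = 0.00416). Sgms2, which also acts at the plasma membrane, was at 19.0, 10.1 and 15.6 CPM in IANX, against 7.59, 3.58 and 5.83 CPM in Sham (log2 fold change 1.39 ± 0.36, adjusted p = 0.0231). The groups did not overlap in either gene. The call of Sgms2 was lost without IANX 1 (adjusted p = 0.0625), IANX 3 (0.0611), Sham 2 (0.0752) or Sham 3 (0.0831).

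**Figure D2:**
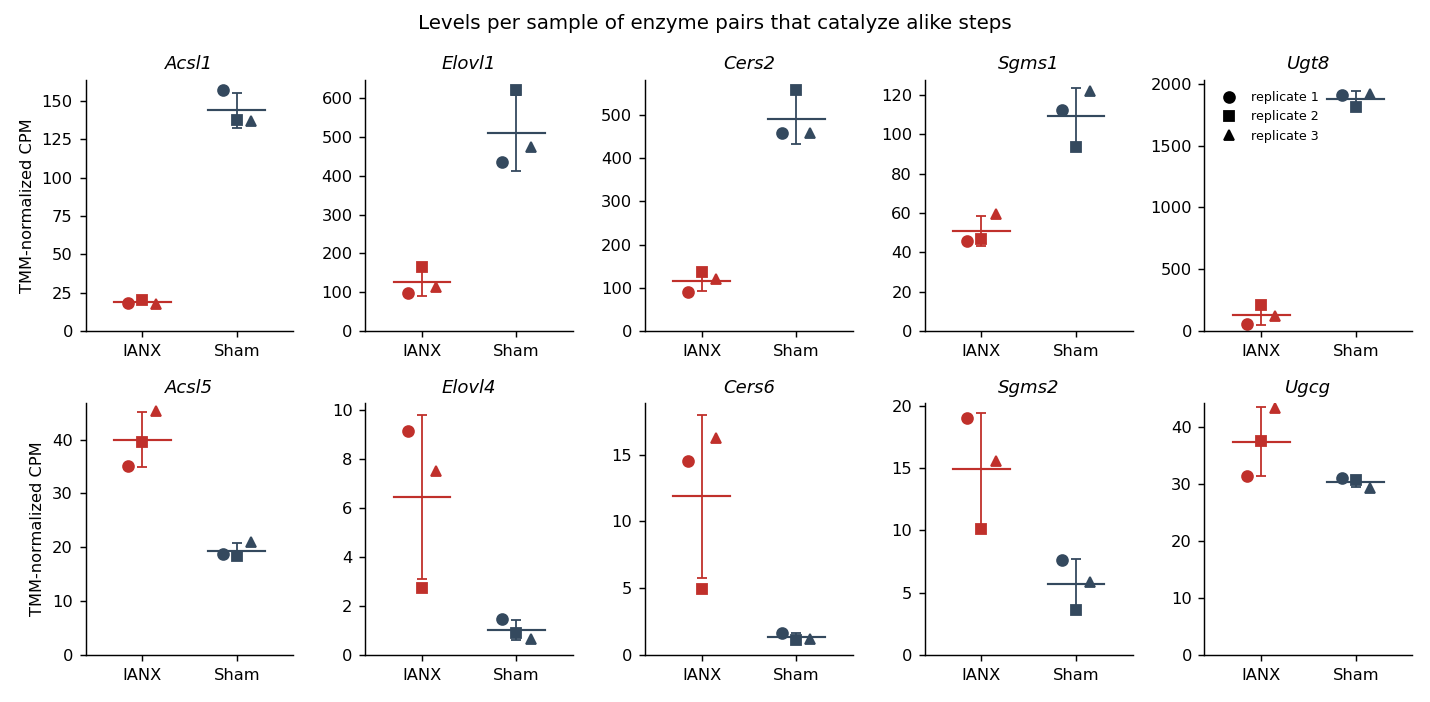
TMM-normalized CPM of each sample (y axis, from 0) for 5 enzymes that were lower (upper row) and a partner of a like step below each, IANX left of Sham, with the mean and SD as lines and the replicate number as the marker. Acsl5, Elovl4, Cers6 and Sgms2 had every IANX sample above every Sham sample, and IANX 2 was the lowest IANX sample for Elovl4, Cers6 and Sgms2. For Ugcg the lowest IANX sample, at 31.4 CPM, was next to the highest Sham sample, at 31.0 CPM.

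Of the 3 lysosomal enzymes that break these lipids down, Arsa and Asah1 were lower. Arsa, the sulfatase that acts on sulfatide, was at 48.3, 48.6 and 49.2 CPM in IANX, against 138, 179 and 145 CPM in Sham (log2 fold change -1.66 ± 0.15, edgeR adjusted p = 0.000697). Its IANX samples differed by a ratio of only 1.02. Asah1, the acid ceramidase, was at 75.7, 149 and 98.8 CPM in IANX, against 212.5, 226 and 219 CPM in Sham (log2 fold change -1.02, adjusted p = 0.0189). Its call was lost without IANX 3 (adjusted p = 0.0681) and without Sham 1, 2 or 3 (0.0576, 0.0741 and 0.0706), and its span overlaps Pcm1 on the other strand, which averaged 101 CPM in IANX and 77.2 CPM in Sham. Galc, which removes the galactose of galactosylceramide, was at 7.36, 22.5 and 8.77 CPM in IANX, against 20.02, 14.8 and 24.0 CPM in Sham. IANX 2 lay within the Sham range, and the gene did not pass (log2 fold change -0.61, adjusted p = 0.312). Without IANX 2 it did (-1.32, adjusted p = 0.00603). Arsa and Galc act on products of Gal3st1 and Ugt8, and the 95% intervals were -2.02 to -1.30 for Arsa and -1.63 to 0.42 for Galc.

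Within enzyme families the share of each isozyme in the summed FPKM of a sample does not depend on the scaling between libraries. Acsl1 made up 8.15, 8.53 and 8.64% of the 5 acyl-CoA synthetases in IANX, against 37.8, 37.6 and 35.6% in Sham, and Acsl5 25.1, 27.4 and 35.8% in IANX, against 7.42, 8.23 and 8.88% in Sham. Acsl3 remained the most abundant of them in both groups, at 48.8 ± 4.57% in IANX and 45.1 ± 0.44% in Sham (SD, n = 3 each). The elongase shares are of the summed FPKM of Elovl1, Elovl4, Elovl5, Elovl6 and Elovl7. Among these elongases, Elovl5 made up 39.5, 29.1 and 33.7% in IANX, against 8.28, 3.62 and 6.84% in Sham. Elovl7 made up 2.15, 4.94 and 6.19% in IANX, against 28.9, 15.4 and 26.5% in Sham. Elovl1 was the most abundant in every sample, at 59.6 ± 5.19% in IANX and 69.6 ± 9.48% in Sham, and Elovl4 stayed rare at 1.77 ± 1.11% in IANX and 0.073 ± 0.032% in Sham.

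The ceramide synthases differed in the same manner. Cers2 made up 46.6, 55.6 and 51.4% of the summed FPKM of Cers2, Cers4, Cers5 and Cers6 in IANX, against 78.7, 78.6 and 77.3% in Sham. Cers3, which is not a member, was left out of this sum, with 1.44, 0.185 and 7.23 FPKM in IANX 1, 2 and 3. Cers4, Cers5 and Cers6 all had larger shares in IANX. Of the palmitoyl-adding synthases, Cers5 had 36.4 ± 2.16% in IANX and 20.4 ± 0.72% in Sham, and Cers6 7.33 ± 4.04% and 0.286 ± 0.090% (SD, n = 3 each). Cers4, which adds long chains, had 5.07 ± 0.64% in IANX and 1.17 ± 0.36% in Sham. Ugcg made up 34.4, 14.5 and 25.4% of the FPKM of Ugt8 and Ugcg together in IANX, against 1.52, 1.59 and 1.44% in Sham. Sgms2 made up 44.0, 29.0 and 33.2% of the sphingomyelin synthases in IANX, against 11.4, 6.78 and 8.33% in Sham. Acacb made up 12.8 ± 2.56% of the acetyl-CoA carboxylases in IANX and 6.05 ± 1.99% in Sham, while Scd2 held 97.8 ± 1.44% of the desaturases Scd1 and Scd2 in IANX and 99.2 ± 0.18% in Sham. In a share, a fall of the most abundant isozyme raises the others, so that the share of Cers5 was higher although its level was lower. With 3 samples per group the smallest two-sided exact permutation p is 0.1, which 15 of the 18 shares tested reached (0.12 after Benjamini-Hochberg adjustment). Elovl1 and Scd2 had p = 0.2 and Acsl3 p = 0.4 in the same exact test.

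**Figure D3:**
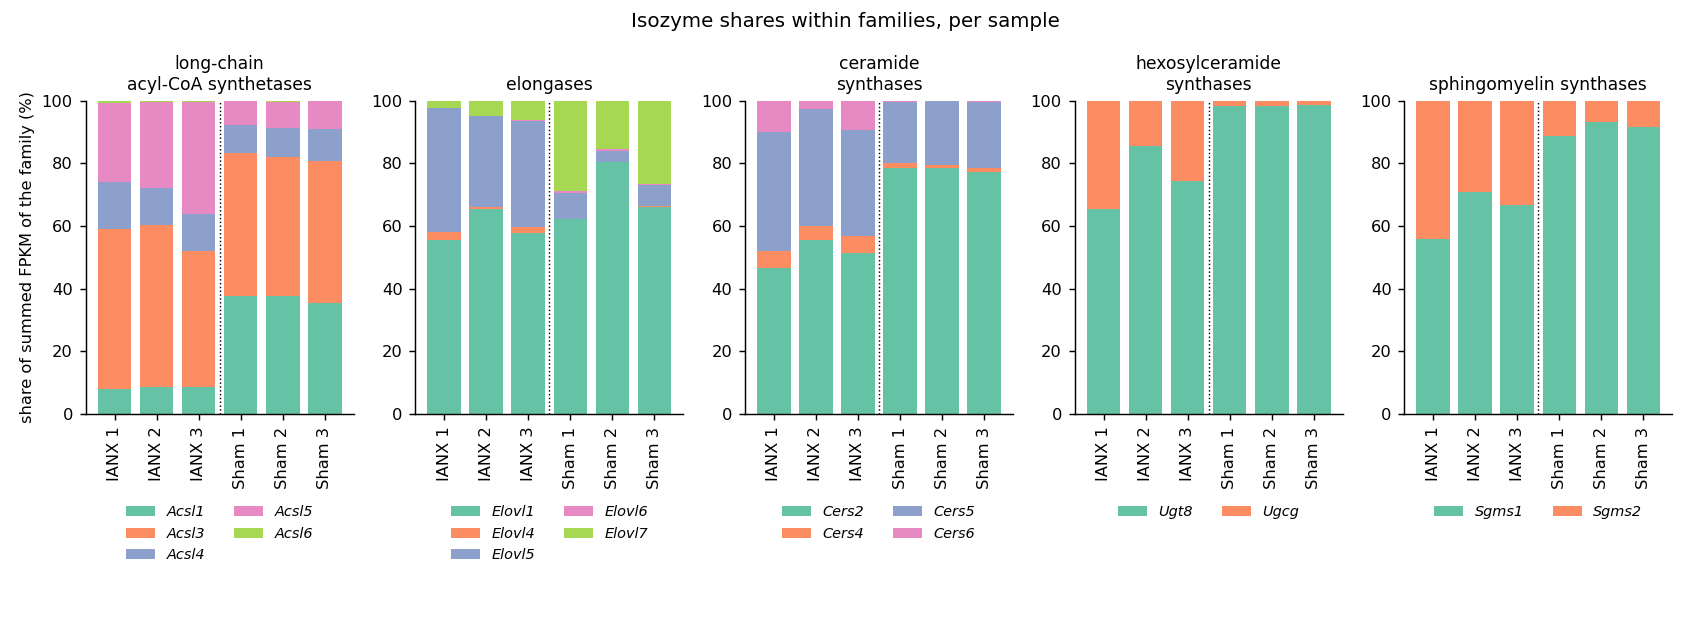
Share of each isozyme (y axis, % of the summed FPKM of its family) in IANX 1 to 3 and Sham 1 to 3 (x axis) for 5 enzyme families. A family holds only the isozymes shown, so that Cers3 is not among the ceramide synthases. The lowest segments of Cers2 and Ugt8 are shorter in each IANX sample than in any Sham sample, Cers2 with 46.6 to 55.6% in IANX and 77.3 to 78.7% in Sham and Ugt8 with 65.6 to 85.5% in IANX and 98.4 to 98.6% in Sham.

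Among the IANX samples, the lower members were spread unevenly. IANX 2 was the highest IANX sample in 16 of the 24 lower members (66.7%), against 60.5% of all lower genes, and IANX 1 was the lowest in 17 (70.8%), against 48.7%. Among the lower members, the ratio of the highest to the lowest IANX sample was 14.1 for the rare Elovl6, 3.85 for Gal3st1, 3.71 for Ugt8, 3.33 for Elovl7 and 3.14 for Fa2h. It was 1.02 for Arsa, 1.03 for Acss2, 1.08 for Kdsr and Sptlc2 and 1.13 for Acsl1. These are descriptions of 3 samples with no test, and the part of the Schwann cell, macrophage, tooth and epithelial transcripts in this spread was not tested. With IANX 2 alone, the sample with the fewest tooth and epithelial transcripts, the median log2 fold change of the members was -0.93. Over all genes of that fit, which holds 1 IANX library, the median was 0.011. The sign of the log2 fold change differed from that of all 6 samples for Me1 and Galc.

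Other genes of the same pathways were read from 10 further lists made by function. Of their 81 tested genes, 28 were lower, 8 were higher and 45 did not pass (edgeR), with a median log2 fold change of -0.30. The lower genes were 34.6% and the higher genes 9.88% of them, against 16.6% and 17.8% of all tested genes. The partners of the elongases were the list with the highest share of lower genes, 5 of 6, at a median of -1.20. Tecr, the enoyl-CoA reductase that closes each elongation cycle, was at 124 to 194 CPM in IANX and 497 to 619 CPM in Sham (log2 fold change -1.77, adjusted p = 0.00175). The dehydratases Hacd4 and Hacd3 had log2 fold changes of -2.58 and -1.28. Of 11 genes of transcriptional and metabolic control, 6 were lower and 2 higher. Slc25a1, the carrier that exports citrate from mitochondria for Acly, was at 55.3 to 87.6 CPM in IANX and 345 to 504 CPM in Sham (log2 fold change -2.63, adjusted p = 0.000851). Mid1ip1, which promotes the activity of acetyl-CoA carboxylase, had a log2 fold change of -2.23 and Scap, the escort of the SREBP factors, one of -1.11.

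In fatty acid uptake and binding, 4 of 9 genes were lower, and without IANX 2, 2 more passed as higher. Pmp2, the fatty acid-binding protein of peripheral myelin, was at 62.5 to 184 CPM in IANX and 1476 to 1817 CPM in Sham (log2 fold change -3.88, edgeR adjusted p = 0.00117). The transporter Slc27a4 had a log2 fold change of -2.63 and the lipoprotein lipase Lpl one of -2.10. In glycerolipid synthesis 3 of 8 were lower and 1 higher. Dgat2, which completes triacylglycerol, was at 8.21 to 16.1 CPM in IANX and 98.4 to 142.5 CPM in Sham (log2 fold change -3.24, adjusted p = 0.000632). The acyltransferase Agpat1 had a log2 fold change of -1.29 and the phosphatidate phosphatase Lpin2 one of 1.19, which was no longer called without Sham 1 or Sham 2 (adjusted p = 0.0571 and 0.0634). In fatty acid oxidation 2 of 10 were lower, a share near the 16.6% of all tested genes, among them the dehydrogenase Acadm at -0.71. Acadm did not pass without any 1 of IANX 1, IANX 3 and the 3 Sham samples (adjusted p of 0.0713 to 0.0869). In mitochondrial fatty acid synthesis 2 of 5 were lower, Acsf3 at -0.84 and Mlycd at -0.62, enzymes that make and break malonyl-CoA there. Mlycd did not pass without IANX 1, IANX 3, Sham 2 or Sham 3 (adjusted p = 0.0593, 0.114, 0.115 and 0.0955).

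The lists around sphingolipids were split. Of the partners of sphingoid base synthesis, 2 of 5 were lower, the small subunit Sptssa of serine palmitoyltransferase at -0.89 and the ceramide carrier Col4a3bp at -0.83 (edgeR), the second not without Sham 3 (adjusted p = 0.0541). Without IANX 2, 3 further genes of that list entered as higher, Cers3, Sptssb and Sptlc3, which were below the filter with all samples. They reached the filter there only through IANX 1 and IANX 3, with 0 to 2 counts in each Sham sample. Their direction was thus set by the filter, and these calls are no support for a difference. In ceramide turnover 4 of 10 were lower and 2 higher, but without Sham 2 or without Sham 3 the counts were 2 lower and 0 higher. Both of these fits also called fewer genes over all tested genes. The alkaline ceramidase Acer3 had a log2 fold change of -1.38, the sphingoid base phosphatase Sgpp1 one of -1.27 and the sphingosine kinase Sphk1 one of 1.55. Sphk1 missed the threshold without Sham 1, 2 or 3 (adjusted p = 0.0593, 0.0553 and 0.0616). In ganglioside synthesis, downstream of Ugcg, 2 of 7 were higher and 5 did not pass. St3gal5, the first sialyltransferase, was at 42.0 to 62.0 CPM in IANX and 20.1 to 24.1 CPM in Sham (log2 fold change 1.16, adjusted p = 0.00482). St8sia1, which adds a further sialic acid, was at 37.2, 2.62 and 42.1 CPM in IANX, against 0.276, 0.25 and 0.369 CPM in Sham (log2 fold change 6.47 ± 1.11, adjusted p = 0.00563). Its Sham counts were 4, 3 and 5, so that it reached the filter only through the IANX samples. The direction of St8sia1 was thus set by the filter, and its call is no support for a difference. IANX 2 was far below the other IANX samples, as for tooth transcripts, and alone gave a log2 fold change of 3.10. Of 10 further genes of lysosomal breakdown, 1 was higher, the galactosidase Glb1 at 0.83, and 9 did not pass. This count rested on IANX 2. Without it 4 of the 10 were lower (Psap, Neu1, Sumf1 and Gm2a) and 1 higher. These 4 are named after their values were seen.

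**Figure D4:**
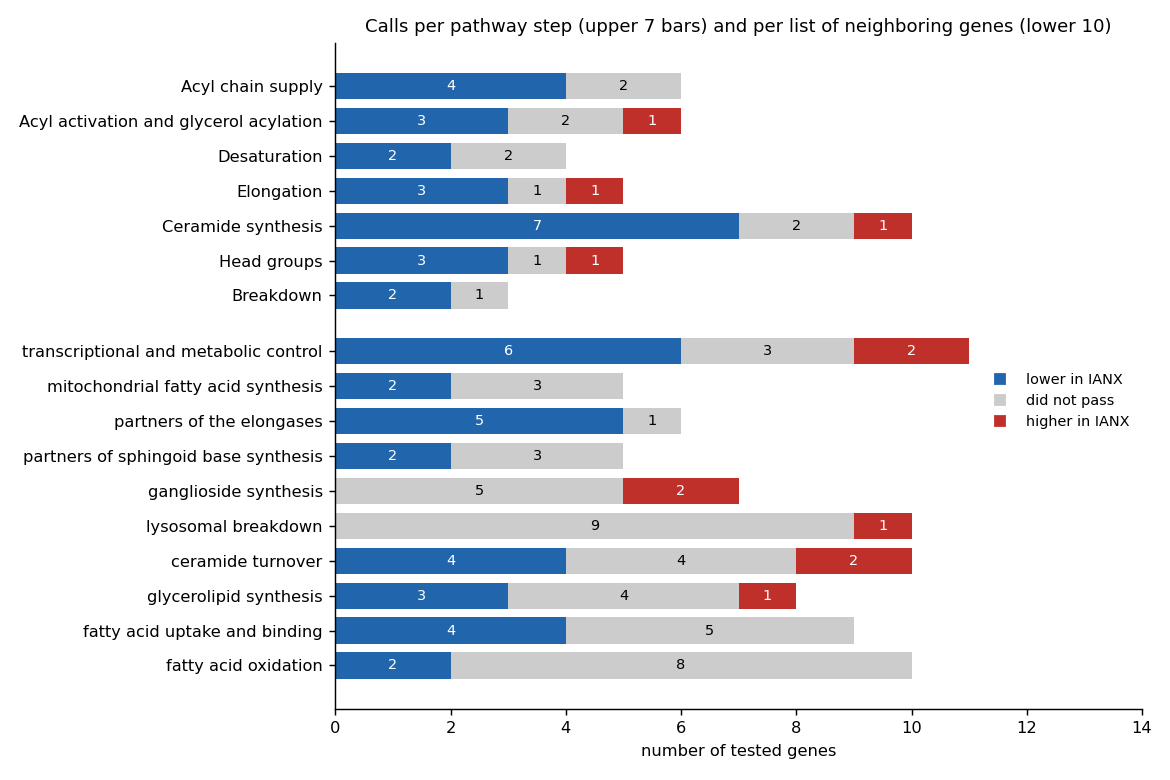
Number of tested genes (x axis) that were lower, did not pass or were higher in IANX (edgeR, adjusted p under 0.05) in each of the 7 steps of the lipid synthesis genes and in each of the 10 lists of neighboring genes (y axis). Ceramide synthesis holds the most lower genes, 7 of 10, and in ganglioside synthesis 2 of 7 genes are higher. St8sia1, among these 2, reached the filter only through IANX.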

How the data were processed

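Total RNA of the inferior alveolar nerve from 3 IANX and 3 Sham rats was extracted with TRIsure, and poly-A mRNA libraries were made by the authors with the NEBNext Ultra RNA Library Prep Kit, which does not mark strand, and sequenced as paired reads. Per the labels, the authors used HISAT2 2.0.5 with the rat build rn6, StringTie 1.3.3b, featureCounts 1.5.0-p3 and DESeq2 1.20.0. The annotation release and how multi-mapping reads were handled are not given in the sources used here, so that reads of close copies such as Scd1 and Scd2 may be split. The deposited counts are raw counts per gene, and the deposited gene lengths are other values taken as they stand. The deposited FPKM were made by the authors from counts and length with 1 library size per sample. The fold changes and p-values of the authors' own comparison were not used.

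Counts of all genes were filtered with filterByExpr and scaled by TMM, and glmQLFit and glmQLFTest of edgeR 4.0.16 (R 4.3.3) compared the conditions, two-sided, without covariates, with p-values adjusted after Benjamini-Hochberg. The study used DESeq2, which is an alternative here (version 1.42.0). Standard errors were derived from the F statistic (absolute log2 fold change divided by the root of F), and intervals are 95%. Isozyme shares were compared by exact permutation over samples (scipy 1.17.1). Other alternatives were RLE factors, library sizes only, no filter, leaving out each sample, IANX 2 alone, a block for replicate number, and limma 3.58.1 on log2(FPKM + 1) or log2(FPKM + 0.1) for genes reaching 1 FPKM in at least 3 samples, or unfiltered. The code was tested on simulated data. Coordinates of genes are those of rn6 in the file, and promoters are RefSeq sequences of GRCr8 matched by symbol. No coordinate was carried between builds.

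The members, the other gene lists and the cell markers were chosen with earlier results of these data known. Every member is named. From each further list, up to 3 called genes with the largest change and a mean of at least 5 CPM are named, except 1 gene that is not reported here. Of 92 genes on those lists, 87 were matched and 81 tested. P-values measure the spread between 3 rats per group.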

Additional observations from a re-analysis of the deposited data

How the results depend on the processing

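Of 28 members that passed, 20 passed under every one of the 15 alternatives that gave a value for them. Of 581 values of members under alternatives, 520 kept their direction and their side of the threshold, 43 lost the call and 7 gained one. The other 11 had another sign than with all 6 samples, 6 of them for Me1, 2 for Acacb and 1 each for Acsl4, Fads2 and Galc, and 10 of these were called in neither fit. Leaving out 1 sample gave 2 to 4 higher and 19 to 26 lower members, and 5 to 14 higher genes on the further lists (8 with all samples). Over all genes, the same fits called 961 to 3712 as higher and 1494 to 3504 as lower. With library sizes only, 7 members and 20 further genes were higher, and limma on log2(FPKM + 1) with no filter gave 5 further genes. The sign changes with a call were those of Me1 in IANX 2 alone (-2.01) and, on the further lists, Gm2a, the activator of ganglioside breakdown, without IANX 2 (-0.50, adjusted p = 0.0271, against 0.03 with all samples and 0.25 without IANX 3). The cause of these shifts was not tested. No isozyme share difference changed sign among 154 values under alternatives. That 0 moved by more than the SD is no check, as no value could. Shares from counts over gene length equal those from FPKM, and leaving out 1 of 3 samples shifts a group mean by less than its SD. Where the groups did not overlap, leaving out 1 sample could not change the sign either. Deviations of same-numbered IANX and Sham samples from their group means had r = 0.0858, -0.0144 and 0.0753 over genes. Different-numbered samples had r from -0.128 to 0.0465. Whether the numbers pair the rats was not tested. The replicate block gave 23 lower and 4 higher members. Low counts limit Elovl6, Thrsp, Elovl4, Cers6 and Degs2, and 3 samples per group cannot give an exact permutation p under 0.1.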

Other observations

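Of the genes on the further lists, 3 of sphingolipid synthesis in epidermis were below the filter on low counts, and were looked at after their values were seen. Cers3, the ceramide synthase of the skin barrier, was at 4.36, 0.545 and 22.0 CPM in IANX 1, 2 and 3, against 0, 0.167 and 0 CPM in Sham. Sptssb, a small subunit of serine palmitoyltransferase, was at 2.04, 0.109 and 4.98 CPM in IANX, against 0, 0.167 and 0 CPM in Sham. Sptlc3, its alternative large subunit, was at 0.679, 0 and 1.304 CPM in IANX, against 0, 0 and 0.0738 CPM in Sham. In all 3 genes IANX 3 was the highest and IANX 2 the lowest IANX sample, the order also found in the summed epithelial markers without Cdh1 (1444, 16.0 and 3210 CPM in IANX 1, 2 and 3, against 18.5, 24.7 and 13.7 CPM in Sham). With no filter on low counts, edgeR gave adjusted p of 0.00948 for Cers3, 0.0292 for Sptssb and 0.0961 for Sptlc3, and DESeq2 0.00164, 0.00268 and 0.0742. Without Sham 1, 2 or 3 none of the 3 passed with edgeR (0.0694 to 0.224). In those fits they reached the filter only through IANX 1 and IANX 3, with 0 to 2 counts in each Sham sample. As the genes were picked after their values were seen, none of these p-values is support for a difference. The part of epithelial transcripts in these values was not tested.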
